A study of Mus musculus with 15 samples.

Results

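The genes that shape, divide or clear mitochondria were followed in mouse quadriceps, by 9 of their best known members, all 9 of which were measured in every mouse, among 39179 genes in the count tables. They are the fusion genes Mfn1, Mfn2 and Opa1, the fission genes Dnm1l, Fis1 and Mff, and the mitophagy genes Pink1, Bnip3 and Fundc1. They were chosen by name and not by a rule on their values, though with earlier results of these data known. The mice were of C57BL/6 background and either wild type or homozygous for V338Y in Mrps5, a protein of the small mitoribosomal subunit in which this exchange raises misreading during mitochondrial translation. Muscle was taken at 3 mo from 4 wild-type and 4 V338Y mice and at 19 mo from 3 wild-type and 4 V338Y mice. The labels number the 3-mo mice 1 to 4 in each genotype, the wild-type mice of 19 mo 2, 4 and 5, and the V338Y mice of 19 mo 2 to 5, and values are given in that order. The allele is constitutive, present in all tissues and at all ages, and RNA came from whole tissue, in which fewer cells of a type and less RNA per cell cannot be told apart. Each mouse gave 1 library.

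Mitochondria in muscle fibers fuse and divide continuously. Mfn1 and Mfn2, the mitofusins, are GTPases of the outer membrane that tether and fuse it, and Opa1 is the GTPase that fuses the inner membrane and holds cristae closed. Division is carried out by Dnm1l, the dynamin that constricts the organelle and is recruited by adaptors on the outer membrane, of which Mff is the main one and Fis1 another. Damaged mitochondria can be taken up by autophagosomes, either through Pink1, the kinase that accumulates on depolarized mitochondria and phosphorylates ubiquitin there, or through outer-membrane receptors that bind LC3 proteins directly, such as Bnip3 and Fundc1.

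The promoters of Opa1, Fis1, Mff and Bnip3 are shown because these are the members called lower at 19 mo in both genotypes. Each is the 250 bases before the RefSeq start nearest to the annotated gene start, on GRCm38.p6, written 5′ to 3′ on the gene's strand, in lower case. Capitals mark matches, on either strand, to the letters searched for NRF1 (GCGCATGCG), GABP (CCGGAAG), ERR (AAGGTCA), HIF (ACGTG) and FoxO (GTAAACA), which are factors known for mitochondrial or hypoxia-responsive genes.
Opa1: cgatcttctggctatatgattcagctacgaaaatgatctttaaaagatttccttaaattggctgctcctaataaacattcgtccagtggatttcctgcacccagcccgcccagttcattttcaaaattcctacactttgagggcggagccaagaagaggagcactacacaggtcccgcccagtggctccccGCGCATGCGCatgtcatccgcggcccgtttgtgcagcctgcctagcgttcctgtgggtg
Fis1: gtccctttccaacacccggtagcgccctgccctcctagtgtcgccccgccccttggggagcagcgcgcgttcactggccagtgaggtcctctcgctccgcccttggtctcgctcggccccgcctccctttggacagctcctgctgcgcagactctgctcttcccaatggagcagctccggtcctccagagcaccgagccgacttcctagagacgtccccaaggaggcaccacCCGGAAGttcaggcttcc
Mff: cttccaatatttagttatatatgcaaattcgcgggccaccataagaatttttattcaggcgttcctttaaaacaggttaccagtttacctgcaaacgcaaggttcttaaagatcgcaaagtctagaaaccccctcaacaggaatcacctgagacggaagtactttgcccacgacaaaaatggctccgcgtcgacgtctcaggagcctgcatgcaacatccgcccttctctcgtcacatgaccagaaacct
Bnip3: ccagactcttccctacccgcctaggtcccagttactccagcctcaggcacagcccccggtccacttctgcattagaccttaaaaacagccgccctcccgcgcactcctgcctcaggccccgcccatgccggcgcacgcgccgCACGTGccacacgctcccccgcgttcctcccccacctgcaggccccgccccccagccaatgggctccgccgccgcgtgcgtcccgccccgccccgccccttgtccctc
The windows lie at chr16:29579084-29579333, plus strand for Opa1, chr5:136953025-136953274, plus strand for Fis1, chr1:82724640-82724889, plus strand for Mff and chr7:138909507-138909756, minus strand for Bnip3. In Opa1 the NRF1 letters matched on both strands within 1 run that begins 59 bases before the start, letters that 1.45% of 32851 mouse promoters of this length hold. In Fis1 the GABP letters began 18 bases before the start, and among the other members they were found only in Mfn1, beginning at 44 bases, against 6.91% of all promoters. In Bnip3 the HIF letters matched on both strands of 1 palindrome that begins 108 bases before the start, against 16.6% of all promoters. No Mff match was found, and the ERR and FoxO letters, held by 4.08% and 3.17% of promoters, were in none of the 9 windows. The Bnip3 window was the richest of the members in CpG, with 24 of these dinucleotides and a GC content of 72.4%, higher than in 93.6% of promoters, whereas Mff had 46.0% GC, higher than in 27.1%. A match is a description of letters, and binding was not measured.

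The libraries held 8250653 to 18968132 counts, and each member had at least 208 counts in every mouse, with Fundc1, at 208 to 516 counts, the least counted and the one most open to counting error. The Y-linked Ddx3y lay at 163 to 202 CPM (a gene's counts for every 1000000 counts of its library, with library sizes adjusted by TMM) in all 8 mice of 3 mo and at 0.0827 CPM or less in all 7 of 19 mo, while Xist, expressed from the inactive X of females, lay at 0.575 CPM or less at 3 mo and at 506 CPM or more at 19 mo. The study's methods give the 3-mo mice as female, which their values go against. Every comparison of ages below therefore compares ages and sexes at once, and the 2 cannot be told apart. Skeletal muscle fiber genes (Acta1, Ckm, Mylpf, Tnnt3, Myh1 and Myh4) summed to 125653 to 146530 CPM at 3 mo and to 64281 to 133578 CPM at 19 mo, with 0 of the 6 at 0 in any mouse. Slow-fiber genes (Myh7, Tnnt1, Tnni1, Tnnc1 and Myl2) summed to 5.20 to 78.8 CPM at 3 mo and were highest in the mice numbered 5 at 19 mo, with 500.2 CPM in the wild-type and 1831 CPM in the V338Y mouse. The 5 neutrophil markers (S100a8, S100a9, Ltf, Ngp and Camp) reached 545 CPM in that V338Y mouse and at most 24.2 CPM in any other. Mrps5 itself lay at 23.7 ± 1.83 and 25.7 ± 1.505 CPM in wild-type and V338Y mice of 3 mo (SD, n = 4 each) and at 17.7 ± 1.79 (SD, n = 3) and 17.4 ± 1.64 CPM (SD, n = 4) at 19 mo. An exchange of 1 residue need not change its level, so this does not check the genotype.

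Levels of different genes were ordered per exon kilobase. On this scale Pink1 was the most abundant member, with a median of 192 CPM per kb over the 15 mice and a range of 123 to 277. Bnip3 followed at 84.4, Mfn2 at 57.99, Fis1 at 29.9, Mfn1 at 29.4, Opa1 at 16.1, Dnm1l at 13.7, Fundc1 at 10.6 and Mff at 8.39 CPM per kb. Neighbours in this order did not all differ beyond their spread. Fis1 exceeded Mfn1 in 10 of 15 mice and Bnip3 exceeded Mfn2 in 12 of 15, while Opa1 over Dnm1l and Dnm1l over Fundc1 held in 14 of 15 and the other neighbours in 15 of 15. The exon length of Mff, 9757 bases over all its annotated isoforms, is the longest of the 9, and a shorter expressed isoform would place it higher.

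The first question was whether the transcripts change between 3 and 19 mo. In wild-type mice 4 of 9 members passed edgeR's quasi-likelihood test at an adjusted p under 0.05, all 4 lower at 19 mo, namely Fis1, Mff, Opa1 and Bnip3. In V338Y mice 6 of 9 passed, again all lower, with Mfn2 and Pink1 added to those 4. Many genes differed between these ages, so the counts are read against 36.2% of 13657 genes called in wild-type mice, of which 17.8% lower, and against 46.9% of 13868 genes in V338Y mice, with 22.5% lower. The 9 had a median log2 fold change of -0.28 (wild type) and -0.33 (V338Y), beside 0.019 and 0.072 over all genes tested. The sign was negative for 8 of 9 members in wild-type and for 9 of 9 in V338Y mice, and CPM of the 2 ages did not overlap for 5 of 9 and 6 of 9, beside 21.7% and 21.9% of all genes that were lower without overlap. Each comparison uses its own mice, and neither count says that the genotypes differ. Summed markers of other cells also differed between the ages, though not each gene did. Macrophage genes (Cd68, Csf1r, Adgre1, Cd163 and Mrc1) summed to 107 to 152 CPM at 3 mo and 156 to 235 CPM at 19 mo, and endothelial genes (Pecam1, Cdh5, Kdr and Tek) to 138 to 174 and 191 to 318 CPM. Both sums lay apart, but each macrophage gene by itself overlapped between the ages. Of the endothelial genes Cdh5 and Kdr lay apart, Pecam1 overlapped, and Tek was level, at 30.7 to 39.3 CPM at 3 mo and 30.4 to 40.5 CPM at 19 mo. The neutrophil sums also lay apart, at 0 to 1.72 CPM at 3 mo and 2.07 to 545 CPM at 19 mo, but most were near the floor. In the wild-type mouse 4 of 19 mo 3 of the 5 markers were at 0. By themselves S100a8, S100a9 and Camp overlapped between the ages, and Ltf and Ngp were at 0 at 3 mo and in some mice of 19 mo. Adipocyte and erythroid genes overlapped as sums. The skeletal muscle fiber genes as a sum were lower in 6 of the 7 mice of 19 mo than in any of 3 mo. By themselves Ckm, Mylpf and Tnnt3 lay apart, while Acta1, Myh1 and Myh4 overlapped. Myh1 reached at most 3573 CPM at 3 mo and 14856 CPM at 19 mo. What part these marker shifts have in the members' changes was not tested. Without the 19-mo mouse 5 of each genotype, which had the most slow-fiber RNA, 5 of 9 members were called in wild-type and 7 of 9 in V338Y mice, beside 29.7% and 47.1% of all genes in the same fits.

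**Figure D1:**
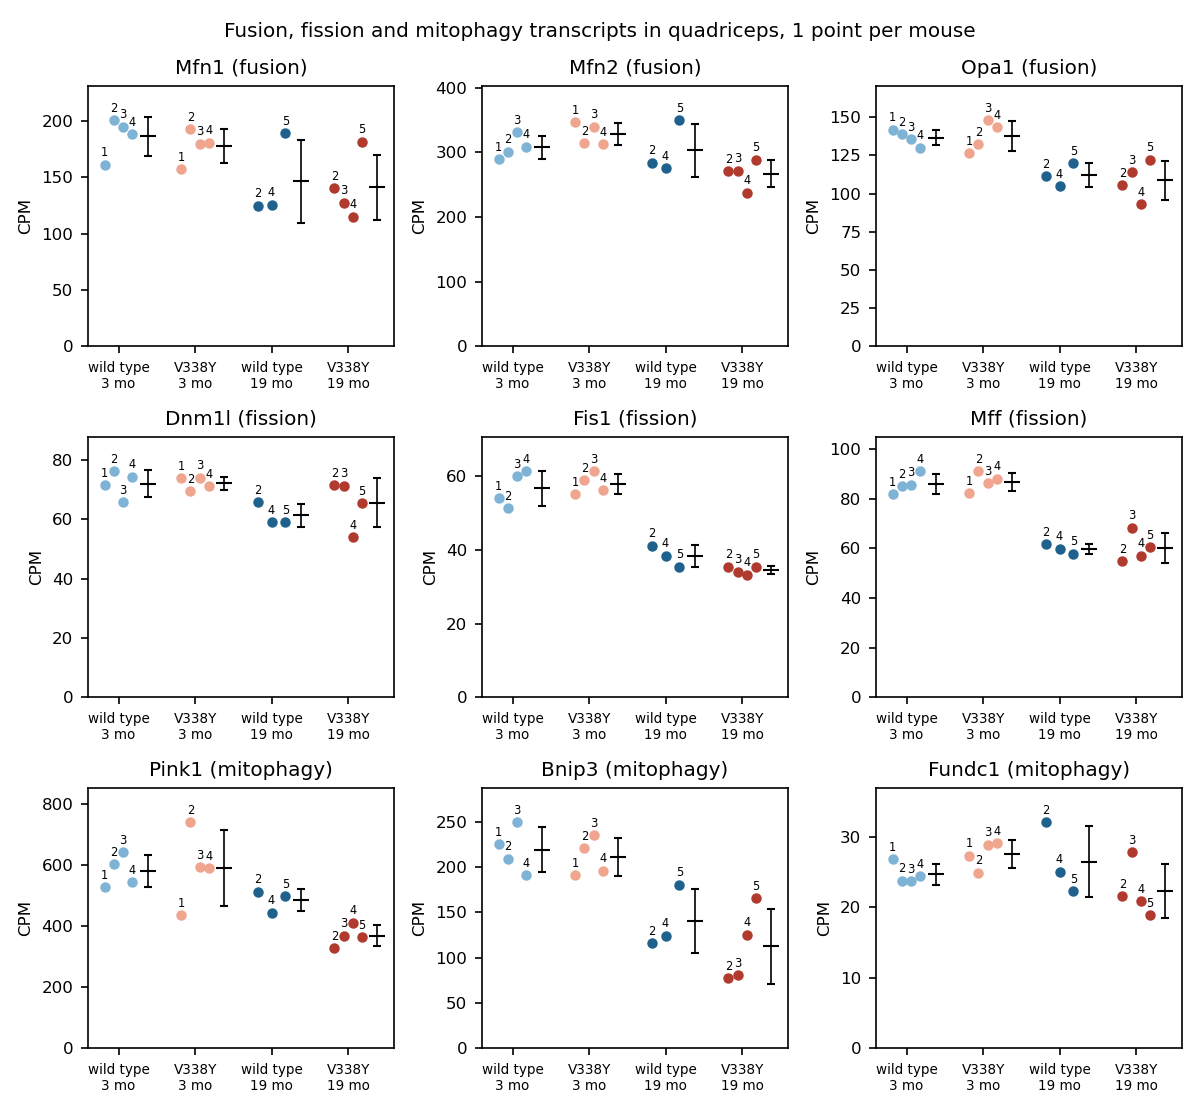
CPM of the 9 members on linear axes that start at 0, with 1 point per mouse, the mouse number above it, and the mean ± SD of each group as a black bar beside the points. Fis1 and Mff of the 19-mo mice lie below every 3-mo mouse, while Mfn1 and Bnip3 of the 19-mo mice numbered 5 lie above those of their group.

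**Figure D2:**
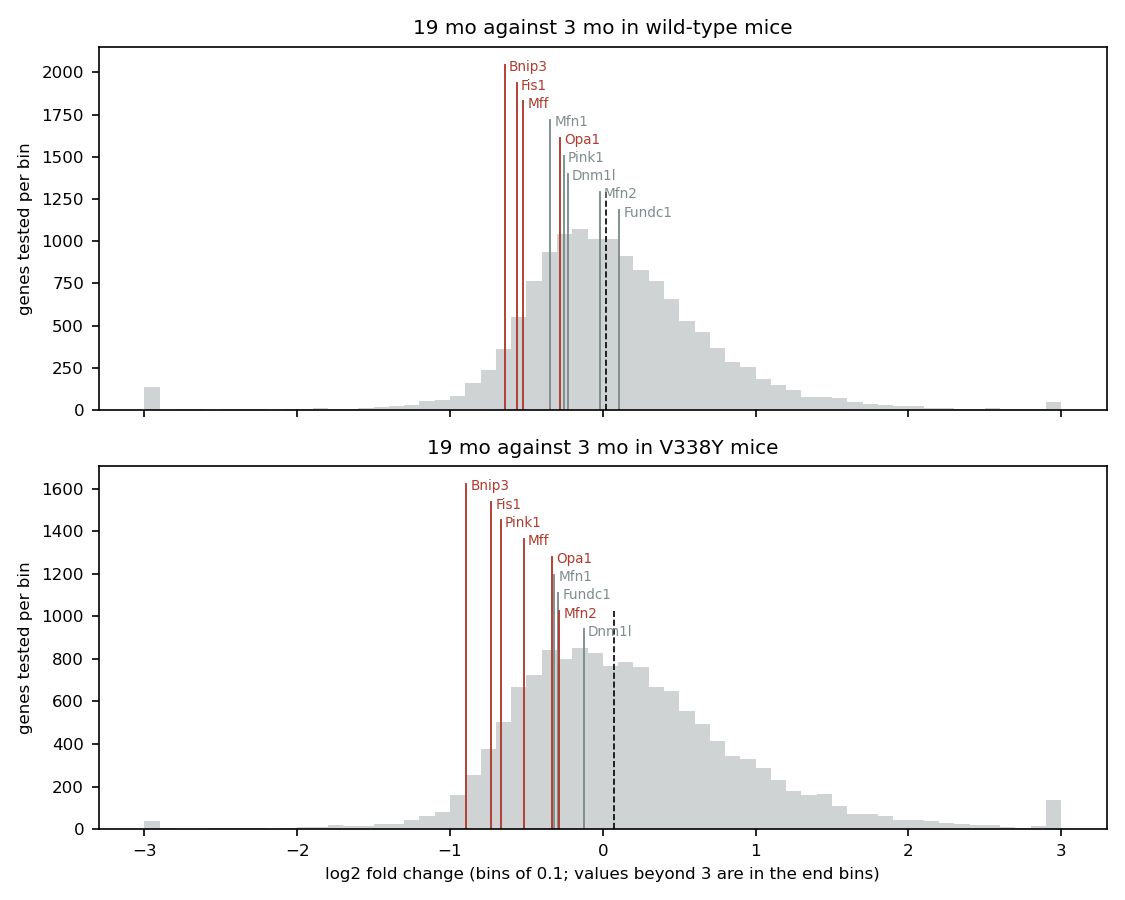
Histogram of the log2 fold change of 19 mo against 3 mo for all genes tested (13657 in wild-type and 13868 in V338Y mice), with a line at each member, red where the adjusted p was under 0.05 and grey otherwise, and a dashed line at the median of all genes. Line heights only separate the names, and 8 of 9 lines in wild-type and 9 of 9 in V338Y mice lie below 0.

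Among the fusion genes, Opa1 (chr16:29579334-29654884) fell in both genotypes. Its CPM was 142, 139, 135 and 130.0 in the wild-type mice 1 to 4 of 3 mo and 112, 105 and 119.9 in mice 2, 4 and 5 of 19 mo. In V338Y mice it was 126, 132, 148 and 143 in mice 1 to 4 of 3 mo and 105, 114, 92.9 and 122 in mice 2 to 5 of 19 mo. Every 19-mo mouse lay below every 3-mo mouse of its genotype. The log2 fold change was -0.28 ± 0.0833 (SE) in wild-type mice (edgeR, adjusted p = 0.0268) and -0.33 ± 0.105 in V338Y mice (edgeR, adjusted p = 0.0271), a fall by 17.8% and 20.4%. Both calls depended on single mice. In wild-type mice the edgeR adjusted p was 0.0669, 0.0594 and 0.0603 without the 3-mo mice 1, 2 and 3 and 0.0536 and 0.101 without the 19-mo mice 2 and 4, and in V338Y mice it was 0.0503, 0.0800 and 0.0716 without the 3-mo mice 2, 3 and 4 and 0.0539 and 0.0646 without the 19-mo mice 2 and 4.

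Mfn2 (chr4:147873599-147904704) passed the test in V338Y mice. Its CPM was 347, 315, 339.9 and 313 in V338Y mice of 3 mo and 271, 272, 238 and 289 at 19 mo, without overlap, a log2 fold change of -0.29 ± 0.0957 (edgeR, adjusted p = 0.0334). In wild-type mice it was 289.7, 301, 331 and 309 CPM at 3 mo and 284, 275 and 350.1 at 19 mo, where mouse 5 had the highest value of both ages, and the log2 fold change was -0.020 ± 0.108 (edgeR, adjusted p = 0.901). Passing in one genotype and not in the other does not show a difference, and the interaction of age and genotype was -0.28 ± 0.138 (edgeR, unadjusted p = 0.0640, adjusted p = 0.548). The V338Y call was lost without the 3-mo mice 1, 2, 3 or 4 (edgeR adjusted p of 0.0745, 0.0597, 0.0905 and 0.0577) and without the 19-mo mouse 4 (0.0781).

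Mfn1 (chr3:32529465-32579239) did not pass in either genotype, and here 1 mouse of each 19-mo group stood apart. Wild-type mice had 161, 201, 195 and 188 CPM at 3 mo and 125, 126 and 189 at 19 mo, and V338Y mice 158, 193, 179.9 and 181 at 3 mo and 141, 128, 115 and 182 at 19 mo. In both 19-mo groups the highest value was that of mouse 5, which reached the 3-mo range. With all mice the log2 fold changes were -0.35 ± 0.157 (edgeR, adjusted p = 0.111) and -0.32 ± 0.143 (adjusted p = 0.0905). Without mouse 5 they were -0.58 (edgeR, adjusted p = 0.00508) in wild-type and -0.45 (adjusted p = 0.00886) in V338Y mice. These are the mice with the highest slow-fiber genes. The wild-type mouse 4 of 19 mo had 287 CPM of slow-fiber genes and 126 CPM of Mfn1, and mouse 2 had 18.7 and 125 CPM. The part of slow-fiber content in Mfn1 was not tested.

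**Figure D3:**
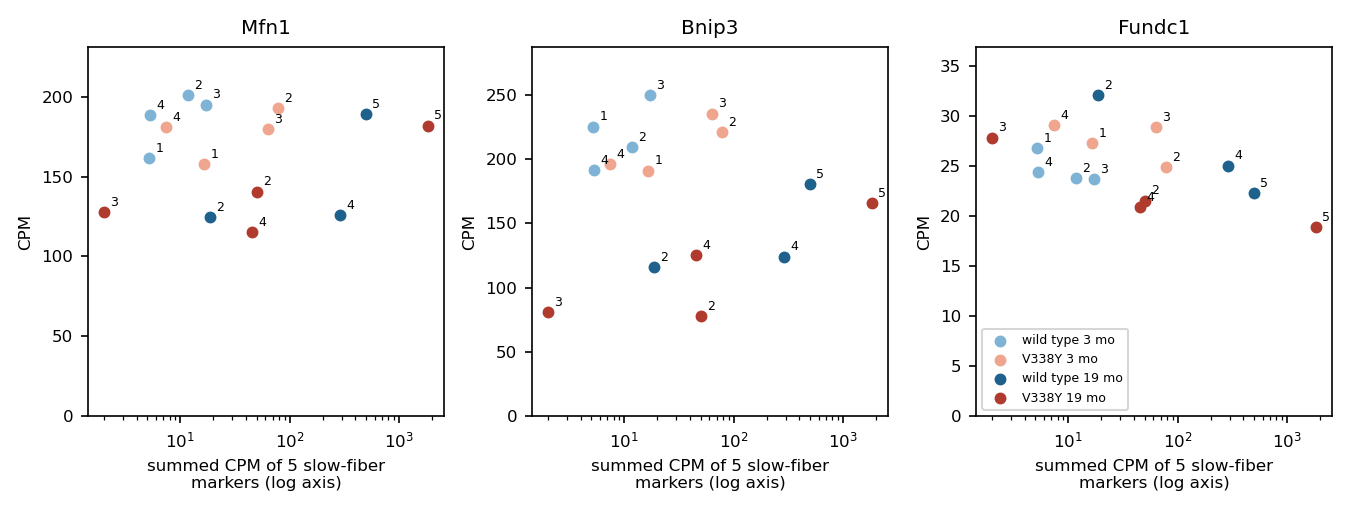
CPM of Mfn1, Bnip3 and Fundc1 against the summed CPM of 5 slow-fiber genes on a log axis, 1 point per mouse with its number, coloured by group. At 19 mo the mice numbered 5, at 500.2 and 1831 CPM of slow-fiber genes, have the highest Mfn1 and Bnip3 and the lowest Fundc1 of their group.

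The fission adaptors Fis1 and Mff had the smallest adjusted p of the 9 in both genotypes. Fis1 (chr5:136953275-136966234) was 54.1, 51.3, 60.0 and 61.4 CPM in wild-type mice of 3 mo and 41.2, 38.4 and 35.4 at 19 mo. In V338Y mice it was 55.1, 58.9, 61.3 and 56.3 at 3 mo and 35.5, 34.1, 33.2 and 35.4 at 19 mo. All 7 mice of 19 mo lay below all 8 of 3 mo, and the 4 V338Y mice of 19 mo spanned the narrowest range of the 4 groups. Fis1 fell by 32.3% in wild-type (log2 fold change -0.56 ± 0.0997, edgeR adjusted p = 0.00302) and by 39.8% in V338Y mice (-0.73 ± 0.0791, adjusted p = 0.000171). Mff (chr1:82724890-82752394), the main Dnm1l adaptor, was 81.9, 84.9, 85.7 and 91.1 CPM in wild-type mice of 3 mo and 61.5, 59.8 and 57.8 at 19 mo. In V338Y mice it was 82.2, 90.9, 86.2 and 88.1 and 54.8, 68.3, 57.0 and 60.4. The ages were again separate in both genotypes, and the falls were nearly equal in size, by 30.4% (log2 fold change -0.52 ± 0.0792, edgeR adjusted p = 0.00151) and by 30.1% (-0.52 ± 0.0901, adjusted p = 0.00157). Neither gene lost its call when any 1 mouse was left out.

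Dnm1l (chr16:16312230-16358959), the dynamin these adaptors recruit, did not pass. It was 71.7, 76.4, 65.7 and 74.4 CPM in wild-type mice of 3 mo and 65.8, 59.1 and 59.1 at 19 mo, and 73.9, 69.5, 74.0 and 71.2 CPM in V338Y mice of 3 mo and 71.6, 71.4, 54.1 and 65.6 at 19 mo. In wild-type mice the ages overlapped only in that mouse 3 of 3 mo lay just below mouse 2 of 19 mo. The log2 fold change was -0.23 ± 0.0875 in wild-type (95% interval -0.43 to -0.033, edgeR adjusted p = 0.0669) and -0.12 ± 0.1001 in V338Y mice (-0.35 to 0.10, adjusted p = 0.329).

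Among the mitophagy genes, Bnip3 (chr7:138890836-138909519) had the largest fold change of the 9 in both genotypes, with a wide spread at 19 mo. It was 225, 209, 249.99 and 191 CPM in wild-type mice of 3 mo and 116, 124 and 181 at 19 mo. In V338Y mice it was 191, 221, 236 and 196 at 3 mo and 77.7, 81.1, 125 and 166 at 19 mo. The ages did not overlap, and the 19-mo V338Y values differed among themselves by more than the 3-mo values did, with a coefficient of variation of 37.0% against 9.97%. Bnip3 fell by 36.0% in wild-type (log2 fold change -0.64 ± 0.164, edgeR adjusted p = 0.0148) and by 46.2% in V338Y mice (-0.89 ± 0.228, adjusted p = 0.0104). As for Mfn1, the mice numbered 5 were the highest of their 19-mo group. In wild-type mice the call was lost without mouse 4 of 19 mo (edgeR adjusted p = 0.0618), and without that mouse 2 of 9 members were called in place of 4, while the share of all genes called went from 36.2% to 24.4%.

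Pink1 (chr4:138313409-138326307) was called in V338Y mice. It was 435, 740.0, 593 and 588 CPM at 3 mo, the widest spread of any 3-mo group, and 328, 368, 411 and 363 at 19 mo, without overlap. The fall was by 37.1% (log2 fold change -0.67 ± 0.161, edgeR adjusted p = 0.00804). In wild-type mice Pink1 was 528, 602, 642 and 544 CPM at 3 mo and 513, 443 and 497 at 19 mo, also without overlap, and the log2 fold change of -0.26 ± 0.106 did not pass (edgeR, adjusted p = 0.0864). A small RNA annotated within Pink1 on the same strand, Gm27646, had 23 to 263 counts beside 3272 to 9677 of Pink1, and how reads were split between them was not tested.

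Fundc1 (chrX:17556564-17572325) lies on the X chromosome, as does its paralog Fundc2, and the part of sex in its values cannot be told apart from that of age. It was 26.8, 23.8, 23.7 and 24.4 CPM in wild-type mice of 3 mo and 32.1, 25.04 and 22.3 at 19 mo, and 27.3, 24.9, 28.9 and 29.0 CPM in V338Y mice of 3 mo and 21.5, 27.8, 20.9 and 18.9 at 19 mo. The ages overlapped in both genotypes. The log2 fold change was 0.11 ± 0.129 in wild-type (edgeR, adjusted p = 0.542) and -0.29 ± 0.124 in V338Y mice (adjusted p = 0.0769). Without the V338Y mouse 3 of 19 mo the latter was -0.43 (edgeR, adjusted p = 0.00750).

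**Figure D4:**
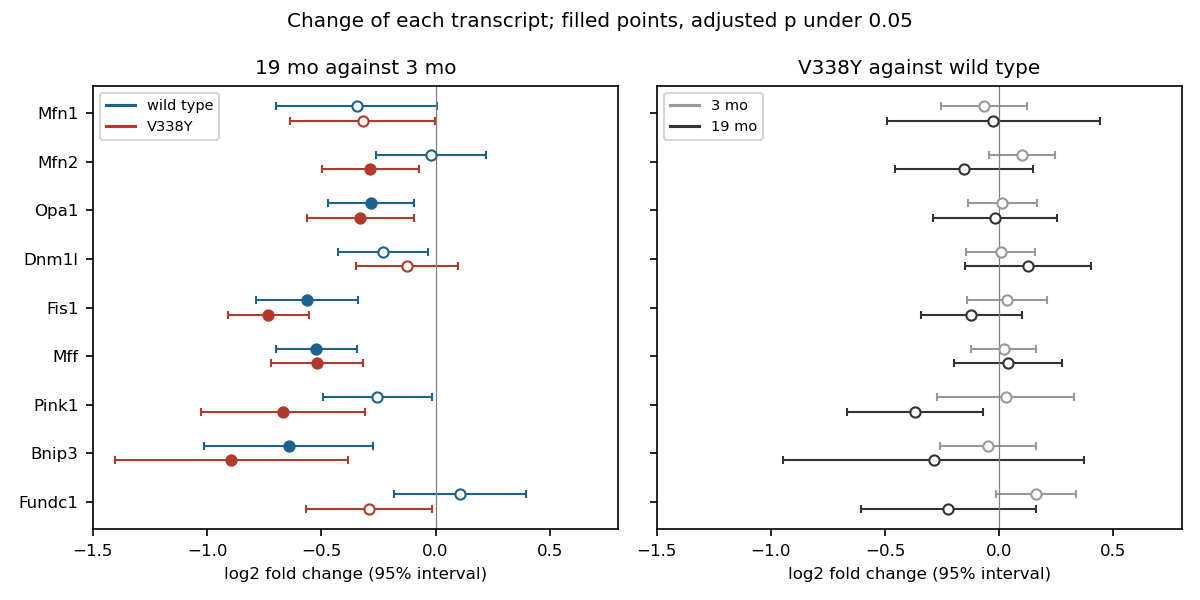
Log2 fold change with its 95% interval for each member, 19 mo against 3 mo on the left and V338Y against wild type on the right, filled where the adjusted p was under 0.05. Filled points, 4 in wild-type and 6 in V338Y mice, are in the left panel alone.

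The next question was whether the V338Y allele changes these transcripts at a given age. At 3 mo 0 of 9 members passed, beside 0.075% of 13333 genes, and 0 had an unadjusted p under 0.05 in edgeR, where 1293 genes did. DESeq2 also called 0 of 9. The log2 fold changes of V338Y against wild type ran from -0.066 for Mfn1 to 0.16 for Fundc1, with a median of 0.019 beside -0.0026 over all genes. The 95% intervals bound how far the members could differ. For Mff it was -0.12 to 0.16, for Opa1 -0.14 to 0.17, for Fis1 -0.14 to 0.21, and for Pink1, the widest, -0.27 to 0.33.

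At 19 mo 0 of 9 members passed as well, beside 0.0434% of 13833 genes in edgeR, where 1235 genes and 1 member had an unadjusted p under 0.05, and DESeq2 called 0 of 9. With the mouse number as a block, 110 genes were called in place of 6 and again 0 of 9 members. The member with the unadjusted p under 0.05 was Pink1, at 513, 443 and 497 CPM in wild-type mice 2, 4 and 5 and 328, 368, 411 and 363 CPM in V338Y mice 2 to 5. All 4 V338Y mice lay below all 3 wild-type mice, the one member of 9 to be lower without overlap, beside 5.28% of all genes. The mean was 367 ± 34.0 CPM (SD, n = 4) against 484 ± 36.3 CPM (SD, n = 3), a log2 fold change of -0.37 ± 0.131 with a 95% interval of -0.67 to -0.072 and an edgeR adjusted p of 0.537. Over the alternatives and with each mouse left out in turn it stayed between -0.44 and -0.32, with adjusted p from 0.195 to 0.871, so that it did not pass in any of them.

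The other members overlapped between the genotypes at 19 mo. Bnip3 was 113 ± 41.7 CPM in V338Y (SD, n = 4) and 140.2 ± 35.2 in wild-type mice (SD, n = 3), a log2 fold change of -0.29 ± 0.288 (edgeR, adjusted p = 0.781). Its interval of -0.95 to 0.37 is too wide to bound the difference closely. Fundc1 was -0.22 ± 0.168 (edgeR, adjusted p = 0.709), Mfn2 -0.15 ± 0.132 (adjusted p = 0.742), Fis1 -0.12 ± 0.0974 (adjusted p = 0.723) and Dnm1l 0.12 ± 0.121 (adjusted p = 0.773) on the log2 scale. Mfn1, Opa1 and Mff lay between -0.025 and 0.037. The median of the 9 was -0.12, beside 0.0080 over all genes.

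Whether the change with age differed between genotypes was tested by the interaction over all 15 mice. No member passed, nor did any of 14128 genes (0% called) in edgeR, while 1361 genes had an unadjusted p under 0.05. With DESeq2 26 genes were called and with the mouse number as a block 117, with 0 of 9 members in each. The largest differences were those of Pink1, -0.42 ± 0.199 (edgeR, unadjusted p = 0.0506, adjusted p = 0.521), and Fundc1, -0.41 ± 0.186 (unadjusted p = 0.0453, adjusted p = 0.511). For Pink1 the V338Y mouse 2 of 3 mo, at 740.0 CPM, weighed most, and without it the difference was -0.28 (edgeR, adjusted p = 0.711). For Fundc1 the wild-type mouse 2 of 19 mo did, and without it the difference was -0.24 (edgeR, adjusted p = 0.831). For Mff the interaction was -0.0042 ± 0.113, with an interval of -0.24 to 0.24.

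Ratios within a mouse, given as a description without a test, were compared between mice only. They are ratios of CPM without a correction for length, so their size does not rank the partners. Mfn2 to Mfn1 was 1.498 to 1.79 in wild-type mice of 3 mo and 1.85 to 2.28 at 19 mo, without overlap, whereas V338Y mice spanned 1.63 to 2.20 at 3 mo and 1.59 to 2.13 at 19 mo. Opa1 to Dnm1l, inner-membrane fusion beside division, was 1.75 to 2.06 in wild-type and 1.71 to 2.01 in V338Y mice of 3 mo, and 1.70 to 2.03 and 1.47 to 1.86 at 19 mo. Bnip3 to Pink1 was 0.348 to 0.427 and 0.299 to 0.440 at 3 mo and 0.226 to 0.363 and 0.220 to 0.457 at 19 mo. The last 2 ratios overlapped between all groups.

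Some pairs of members varied together among mice of the same group, some ran in opposite directions and others were hardly related. After each group's mean was removed, the correlation of log2 CPM over the 15 mice, which share group sizes and normalization, was 0.73 for Mfn1 with Mfn2, 0.63 for Mfn1 with Opa1, 0.58 for Mfn1 with Bnip3 and 0.54 for Mfn2 with Opa1. It was -0.66 for Bnip3 with Fundc1, -0.64 for Mfn1 with Fundc1 and -0.58 for Dnm1l with Bnip3. The other pairs lay between -0.40 and 0.48, with Opa1 and Fis1 at 0.012 and Mfn1 and Mff at 0.030. Pairs of other genes were not compared. In both 19-mo groups mouse 5 was the highest for Mfn1, Mfn2, Opa1 and Bnip3 and the lowest for Fundc1. How far these correlations rest on the mice numbered 5 was not tested. Fis1 and Mff, the 2 adaptors, had 0.32 within groups and 0.95 over all 15 mice, the higher value including the gap between ages.

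Over all 15 mice and 14127 other genes, the gene whose log2 CPM ran most like Fis1 was Psma2, a proteasome subunit (Pearson's r = 0.987), and the one most like Mff was Cenpb (0.986). Opa1 was most like Dnajc27 (0.961), Mfn1 like Tmem65 (0.969), Pink1 like Zdhhc17 (0.959), Bnip3 like Zwint (0.968), Fundc1 like Ppm1l (0.943), Dnm1l like Tmx2 (0.924) and Mfn2 like Tpm2, a tropomyosin of the sarcomere (0.891). Next after Zwint, Bnip3 was most like Slc25a33 (0.966), a mitochondrial pyrimidine nucleotide carrier, and Mfn1 came in its first 3 close to Etfdh (0.949), which passes electrons from fatty acid oxidation to the respiratory chain. These values include the gap between ages and are given without a p.

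Around the 9 members, 62 other genes of the same processes were described by list, of which 59 were tested in each comparison and Pld6, Mtfr2 and Calcoco2 were not. With age 25 of 59 were lower and 5 higher in wild-type mice, and 30 lower and 5 higher in V338Y mice, beside 36.2% (17.8% lower) and 46.9% (22.5% lower) of all genes. Between genotypes 0 of 59 passed at either age, beside 0.075% of all genes at 3 mo and 0.0434% at 19 mo. In the interaction 0 of 59 passed, beside 0% of all genes. With so few genes called, these counts are not particular to the lists.

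Regulators of fusion and cristae had 13 of 16 genes lower and 0 higher in each genotype, beside 17.8% and 22.5% of all genes lower, and had medians of -0.41 in wild-type and -0.50 in V338Y mice. Phb, the prohibitin that scaffolds the inner membrane and guards Opa1 processing, fell by 0.73 ± 0.108 (SE) on the log2 scale in wild-type (edgeR, adjusted p = 0.00130) and by 0.71 ± 0.121 in V338Y mice (adjusted p = 0.00141). Yme1l1, the protease that cleaves Opa1, fell from 146 ± 6.94 to 96.5 ± 8.68 CPM in V338Y mice (SD, n = 4 each; edgeR, adjusted p = 0.000938). Mtch2, an outer-membrane protein that promotes fusion, fell by 0.55 ± 0.0796 in wild-type mice (edgeR, adjusted p = 0.00122) and by 0.54 ± 0.0791 in V338Y mice (adjusted p = 0.000646), and Minos1, a subunit of the MICOS complex at crista junctions, fell by 0.59 ± 0.0884 in wild-type mice (adjusted p = 0.00146). Chchd6, Oma1 and Spg7 did not pass in wild-type mice, and Chchd6, Phb2 and Afg3l2 did not in V338Y mice. With the mouse number as a block 8 of 16 passed in wild-type mice, beside 16.3% of all genes.

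Fission regulators moved both ways, with 5 of 14 lower and 2 higher in wild-type mice and 6 lower and 2 higher in V338Y mice, beside 36.2% and 46.9% of all genes called in either direction. In wild-type mice 4 passed in place of 7 without mouse 4 of 3 mo (29.7% of all genes) and with the mouse number as a block (16.3%). March5, the outer-membrane ubiquitin ligase that acts on Dnm1l and its adaptors, fell by 0.66 ± 0.0808 in wild-type (edgeR, adjusted p = 0.000573) and by 0.52 ± 0.0848 in V338Y mice (adjusted p = 0.00117). Mtfp1, an inner-membrane protein that promotes fission, was 27.2 ± 1.79 CPM at 3 mo (SD, n = 4) and 13.8 ± 2.43 CPM at 19 mo (SD, n = 3) in wild-type mice (edgeR, adjusted p = 0.000760). Inf2, a formin that assembles actin where the endoplasmic reticulum meets mitochondria, rose in contrast, by 1.41 ± 0.220 in wild-type (edgeR, adjusted p = 0.00168) and by 1.95 ± 0.192 in V338Y mice (adjusted p = 0.000120), from 4.87 ± 1.09 to 18.7 ± 3.56 CPM in the latter (SD, n = 4 each). Mtfr1l, a relative of the fission regulator Mtfr1, fell from 103 ± 1.28 to 65.1 ± 3.56 CPM in V338Y mice (SD, n = 4 each; edgeR, adjusted p = 0.000256).

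Among the genes of the Pink1 pathway, which need not all promote mitophagy, 3 of 12 were lower in each genotype and 0 higher. Both times these were Tomm7, Optn and Usp15. The 3 of 12 are a smaller share than the 36.2% and 46.9% of all genes called and near the 17.8% and 22.5% called lower. Tomm7, the small translocase subunit that holds Pink1 on the outer membrane, fell by 0.59 ± 0.107 in wild-type (edgeR, adjusted p = 0.00321) and by 0.77 ± 0.0804 in V338Y mice (adjusted p = 0.000153). Optn, an autophagy receptor for ubiquitin, fell by 0.83 ± 0.175 in wild-type (edgeR, adjusted p = 0.00672) and by 0.72 ± 0.174 in V338Y mice (adjusted p = 0.00789). The last was Usp15, a deubiquitinase, at -0.24 ± 0.0820 (edgeR, adjusted p = 0.0446) and -0.45 ± 0.109 (adjusted p = 0.00797).

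Among mitophagy receptors and LC3-family genes, 2 of 12 were lower and 2 higher in wild-type mice, and 6 lower and 2 higher in V338Y mice. The 4 of 12 in wild-type mice are near the 36.2% of all genes called, and the 8 of 12 in V338Y mice stand beside 46.9%. With the mouse number as a block 2 of 12 passed in wild-type mice, near the 16.3% of all genes in that fit. The 2 higher genes start autophagy. Ulk1, the initiating kinase, was 61.4 ± 15.3 CPM in 3 wild-type mice of 19 mo and 20.4 ± 1.76 CPM in the 4 of 3 mo (edgeR, adjusted p = 0.000212), and Ambra1, a scaffold of that step, was 34.7 ± 3.92 against 23.0 ± 0.687 CPM, both higher at 19 mo (adjusted p = 0.00229). In V338Y mice they rose by 1.18 (edgeR, adjusted p = 0.00394) and 0.43 (adjusted p = 0.00677) on the log2 scale. The lower genes included LC3-family proteins, which are conjugated to autophagosome membranes, Map1lc3a and Gabarapl2 in both genotypes and also Map1lc3b and Gabarap in V338Y mice. Map1lc3a fell by 0.73 ± 0.101 in wild-type (edgeR, adjusted p = 0.00101) and by 0.44 ± 0.121 in V338Y mice (adjusted p = 0.0146), and Gabarapl2 by 0.36 ± 0.0959 (adjusted p = 0.0187) and 0.66 ± 0.0756 (adjusted p = 0.000220). In V338Y mice Map1lc3b fell by 0.38 ± 0.0929 (edgeR, adjusted p = 0.00832) and Gabarap by 0.29 ± 0.0829 (adjusted p = 0.0182), and in wild-type mice neither passed (adjusted p = 0.128 and 0.1403). Fkbp8, an outer-membrane mitophagy receptor, fell from 71.8 ± 1.98 to 54.6 ± 2.80 CPM in V338Y mice (SD, n = 4 each; edgeR, adjusted p = 0.00377). Fundc2, the paralog of Fundc1, fell by 0.56 ± 0.110 in V338Y mice (edgeR, adjusted p = 0.00283), and Bnip3l, the paralog of Bnip3, did not pass in either (log2 fold changes of 0.00099 and -0.15).

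Of 5 adaptors that carry mitochondria along microtubules, 2 were lower and 1 higher in each genotype, beside 36.2% and 46.9% of all genes called in either direction. These counts rested on single mice. In wild-type mice 1 of 5 passed without the 3-mo mouse 2 or 3 or the 19-mo mouse 4 or 5, beside 24.4% to 31.9% of all genes. With the mouse number as a block 1 of 5 passed there too, beside 16.3%. In V338Y mice 0 or 1 of 5 passed without any 1 of the 8 except mouse 2 of 19 mo, beside 37.6% to 47.4%. In wild-type mice Trak2 fell by 0.63 ± 0.150 (edgeR, adjusted p = 0.0116), Rhot1, the Miro GTPase that anchors the motor, fell by 0.25 ± 0.0769 (adjusted p = 0.0303), and Trak1 rose by 0.45 ± 0.134 (adjusted p = 0.0279). The lists were compared with the members only by these counts and medians, beside the medians of 0.019 and 0.072 over all genes.

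**Figure D5:**
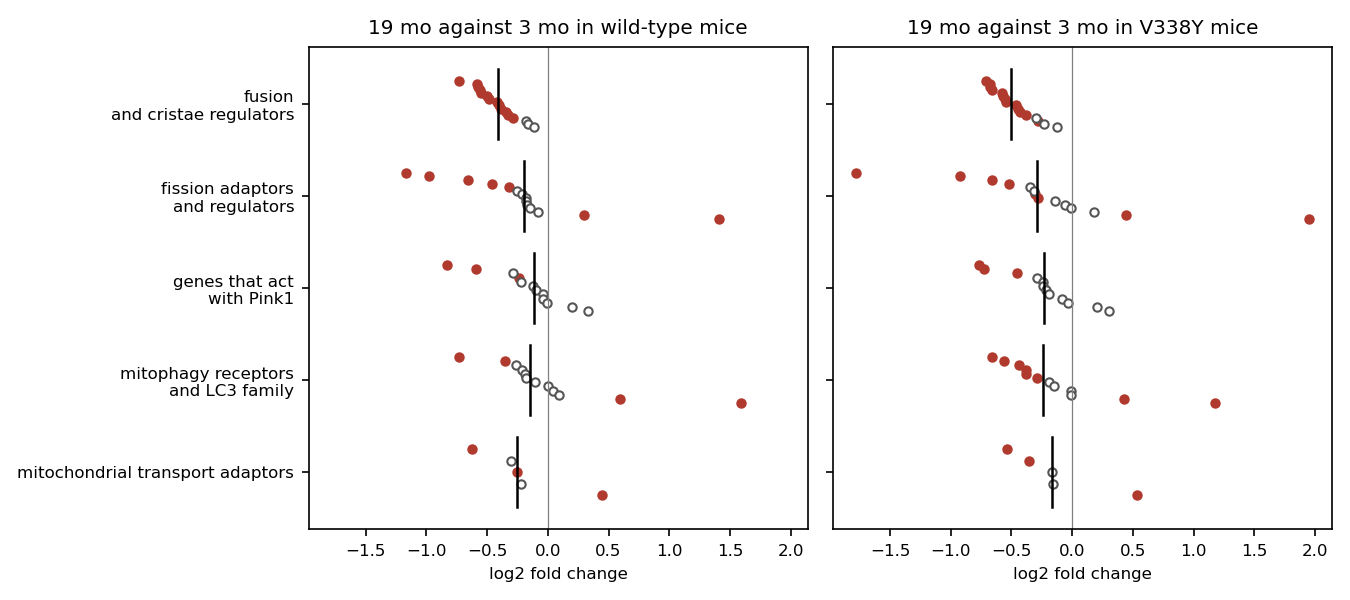
Log2 fold change of 19 mo against 3 mo for the 59 tested genes of 5 lists, 1 point per gene, red where the adjusted p was under 0.05 and open otherwise, with a black bar at each list's median. Of the fusion and cristae regulators 13 of 16 are red and all 16 lie below 0 in both genotypes. The other lists hold red points on both sides, except the genes of the Pink1 pathway, with 3 of 12 red and lower.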

How the data were processed

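Quadriceps RNA of 15 mice was sequenced as single reads. The authors quantified it with RSEM and Ensembl annotations and deposited an expected count per gene and mouse, as whole numbers without normalization. The study's methods name the assembly GRCm37, whereas the submitters' processing notes name GRCm38, and STAR 2.4.2a. Whether counting used strand is not given in the sources used here. Symbols, positions and exon lengths came from GENCODE M21 (GRCm38), promoters from RefSeq.

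A gene was kept where 50% or more of the mice of 1 compared group had 10 counts or above. The quasi-likelihood test of edgeR 4.0.16 (R 4.3.3) was used on the groups compared, or on all 15 mice for the interaction, with TMM, Benjamini-Hochberg adjustment over all genes tested and a threshold of 0.05. Correlations used log2(CPM + 0.5). Mice of a group differed by more than counting noise (chi-square per degree of freedom 5.85 to 111). The p-values of edgeR set a group difference against the spread between mice, which is estimated with information shared across genes. On simulated counts, 91% of 100 genes changed by 1 on the log2 scale were recovered for age in wild-type mice, 78% for genotype at 19 mo and 55% for the interaction. These counts had the same dispersion for every gene, and only genes above a minimum mean count were changed. The largest log2 fold change of a member was -0.89, so these shares do not hold for the members' smaller changes or for genes of wider spread.

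The members and lists were chosen with earlier results of these data known. From each list up to 3 genes per comparison were named, those with the smallest adjusted p under 0.05 and no overlap between groups, and for each member the 3 genes most like it were computed. Bnip3l and other list genes given outside that rule were picked after their values were seen, and the remaining list genes are given by counts alone. The values of 1 list gene are not reported here. Between the genotypes at 19 mo, deviations of same-numbered mice had correlations of 0.132 to 0.400 over 3 pairs. Those of differently numbered mice ran from -0.407 to 0.467 over 9 pairs. The highest was that of V338Y mouse 3 with wild-type mouse 2, so the numbers do not single out pairs. The labels give no shared litter or batch. Alternatives were RLE and upper-quartile scaling, DESeq2 1.42.0, other filters, the replicate block, a fit of all mice, leaving out the 10 most counted genes, an unadjusted p under 0.005, and each mouse left out in turn.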

Additional observations from a re-analysis of the deposited data

How the results depend on the processing

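With 3 or 4 mice a group, the members' calls with age were less stable than their direction. Without 1 mouse each, 2 to 5 of 9 members were called in wild-type and 4 to 7 in V338Y mice, with 2 in wild-type mice lacking mouse 4 of 19 mo, beside 24.4% to 34.6% and 37.6% to 47.4% of all genes. At an unadjusted p under 0.005, 3 and 4 members were called, beside 25% and 32.4% of all genes. Fis1 and Mff stayed called under every alternative run except Fis1 in wild-type mice with the replicate block (edgeR adjusted p = 0.0577). In that block only same-numbered mice inform the change with age, 2 pairs in wild-type and 3 in V338Y mice. Mouse 5 of 19 mo had no partner in either genotype and did not contribute. With that block 3 members passed in wild-type mice, beside 16.3% of all genes, where Opa1 was also lost (0.153) and Mfn1 gained (0.0186). In V338Y mice 6 passed, beside 39.7% of all genes, where Mfn2 was lost (0.106) and Mfn1 gained (0.0136). Mfn2 in V338Y mice was also lost without a filter (0.0700), and Pink1 in wild-type mice passed with DESeq2 (adjusted p = 0.0481). Between genotypes and in the interaction 0 of 9 members were called under every alternative run.

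Counts over all genes moved more. The replicate block gave 2229 calls for age in wild-type mice in place of 4940, 110 for genotype at 19 mo in place of 6, and 117 in the interaction in place of 0. For age in wild-type mice the block rests on 2 same-numbered pairs, fewer mice than the main fit. In the other comparisons deviations of same-numbered mice had correlations of -0.162 to 0.141 at 3 mo, 0.0048 to 0.016 for age in wild-type and -0.136 to 0.015 in V338Y mice. DESeq2 gave 66 calls at 3 mo, 62 at 19 mo and 26 in the interaction, and no filter gave 33, 14 and 5. Without 1 mouse each, genotype gave 3 to 14 calls at 3 mo and 2 to 7 at 19 mo. The cause was not tested.

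Signs turned only for members near 0. At 19 mo Opa1 was 0.00037 with upper-quartile factors, Mff -0.020 with the block, and Mfn1 0.033 with the block and 0.062 without both mice numbered 5, an alternative chosen after seeing the data. In the interaction Mff was 0.0015 with RLE factors, 0.023 with upper-quartile factors, 0.0061 with DESeq2, 0.0010 without a filter, 0.0067 without the 10 most counted genes and 0.0012 without both mice numbered 5. Without 1 mouse each, log2 fold changes with age in wild-type mice ran from -0.14 to 0.035 for Mfn2 and -0.062 to 0.21 for Fundc1. At 3 mo they ran from -0.022 to 0.055 for Opa1, -0.037 to 0.035 for Dnm1l, -0.013 to 0.074 for Fis1, -0.0039 to 0.049 for Mff, -0.10 to 0.15 for Pink1 and -0.11 to 0.018 for Bnip3. At 19 mo they ran from -0.17 to 0.20 for Mfn1, -0.077 to 0.043 for Opa1 and -0.017 to 0.077 for Mff, and in the interaction from -0.10 to 0.25 for Mfn1, -0.10 to 0.032 for Opa1 and -0.069 to 0.057 for Mff.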
